A study of Rattus norvegicus with 8 samples.

Results

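Citric acid cycle, pyruvate dehydrogenase and malate-aspartate shuttle genes were examined in the extraocular muscles, which turn the eyeball, of adult Sprague-Dawley rats. A fixed list of 33 genes was matched by symbol to the probe sets of the array, and 31 of them were measured, among 14217 genes named on the array. Where a gene had several probe sets the brightest one over the 8 arrays stood for it, and all 31 passed the filter on dim probe sets, as did 10446 genes in all. Fh and Dlat, for fumarase and the acetyltransferase of pyruvate dehydrogenase, were not analysed here. Membership follows enzyme role and uses no measured value, although earlier results of these data were known when the list was drawn up.

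The hyperthyroid group held 4 rats that received T3 (triiodothyronine, a thyroid hormone) over 6 weeks, in abdominal injections on alternate days, at 25 µg for each 100 g they weighed, with the muscles taken 24 hours after the last dose. The control group held 4 rats described as untreated, with no sham injection mentioned in the sources used here. All 8 rats were of the same strain and entered at 200 ± 40 g. One array was run per rat, and per-array values are given below in the order hyperthyroid 1, 2, 3 and 5, then control 7, 8, 9 and 11, which are the numbers in the titles. The question of the design is how a chronic excess of thyroid hormone alters expression in these muscles.

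Pyruvate enters mitochondria through a carrier and is turned into acetyl-CoA by the pyruvate dehydrogenase complex, which its kinases switch off and its phosphatases switch on. The citric acid cycle oxidises acetyl-CoA and passes the electrons to the respiratory chain, in which succinate dehydrogenase takes part as complex II. The malate-aspartate shuttle carries the electrons of cytosolic NADH into mitochondria, a task that the glycerol phosphate shuttle can also perform. Thyroid hormone is known to raise oxygen use and mitochondrial content in limb muscle, and extraocular muscle is rich in mitochondria even without it.

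Markers fixed for this work were used to check the arrays. The 4 myofibre markers (Acta1, Ckm, Mb and Tnnt3) summed to between 79551 and 114882 signal units on hyperthyroid arrays and between 95337 and 112368 on controls. Their log2 differences (hyperthyroid minus control, ± SE) were -0.02 ± 0.19, -0.15 ± 0.14, -0.01 ± 0.16 and -0.24 ± 0.15 in that order. Without the array labelled hyperthyroid 5 they were -0.08 ± 0.18, -0.22 ± 0.13, 0.04 ± 0.15 and -0.31 ± 0.13. The array labelled hyperthyroid 5 lacked the extraocular myosin Myh13, with a signal of 4.17, against at least 5430 on each of the other 7. Its summed signal of Myh13, Myh3 and Myh8 was 223, against 22626 to 36116 on the other hyperthyroid arrays and 20859 to 31086 on controls. Its 5 slow-fibre markers summed to 45705, against at most 19186 on any other array, and its 6 adipocyte markers to 12059, against at most 4168. The 4 myelin markers summed to 96.7 on this array and to 1081 on hyperthyroid 2, against at least 6263 on the others. The 3′ Gapdh probe set divided by the 5′ one, a ratio that is higher in shorter RNA, was 3.91, 4.40, 2.18 and 1.44 on hyperthyroid arrays and 1.97, 1.68, 1.77 and 1.67 on controls. The 3 endothelial markers measured (Pecam1, Kdr and Tek) summed to between 1130 and 1442 on hyperthyroid arrays and between 941 and 1103 on controls, without overlap. Kdr, a receptor of vascular growth factor, stood at 0.59 ± 0.17 on 8 arrays and 0.73 ± 0.14 on 7 (limma's adjusted p = 0.284 and 0.0703), also without overlap. Pecam1 (0.26 ± 0.18, and 0.18 ± 0.19 on 7 arrays) and Tek (0.14 ± 0.17, and 0.20 ± 0.17 on 7 arrays) each overlapped between groups. The 4 leukocyte markers summed to 3977 on the array labelled hyperthyroid 5, against at most 2104 on any other array. The part of these cell types in the results was not tested. Differences are given on all 8 arrays and, for each of the 31 genes, also on the 7 arrays without the array labelled hyperthyroid 5. In whole tissue, fewer muscle fibres and less RNA per fibre cannot be told apart.

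The genes of the list were lower on hyperthyroid arrays in most cases, with a median log2 difference of -0.25, and none passed the test across the array. Of the 31 genes, 26 had a negative log2 difference (hyperthyroid minus control) and 5 a positive one. Over all 18625 probe sets tested, 47.5% were negative and 52.5% positive, and the median log2 difference was 0.03. With limma and a Benjamini-Hochberg adjustment over all probe sets, 0 of the 31 genes had an adjusted p under 0.05, as did 0 of 18625 probe sets (0%), and the smallest adjusted p among the 31 was 0.214. At an unadjusted p under 0.05, 11 of the 31 (35.5%) were lower and 0 were higher, where 5.30% of all probe sets were lower and 6.25% higher. In 10 of the 31 genes all hyperthyroid values lay below all control values, against 3.23% of all probe sets. The reverse held in 0 of the 31, against 4.33% of all probe sets.

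Without the array labelled hyperthyroid 5, 28 of 31 genes were negative (45.8% of all probe sets) and 3 positive (54.2%), with a median log2 difference of -0.22 against 0.04 over all probe sets. In this fit 0 of the 31 genes passed the adjusted threshold, which 0.156% of all probe sets did, and the smallest adjusted p among the 31 was 0.0668. At an unadjusted p under 0.05, 12 genes were lower (38.7%, against 7.66% of all probe sets) and 0 were higher (against 7.59%). Groups did not overlap in 11 genes, all lower, against 6.51% of all probe sets that were apart and lower and 8.28% that were apart and higher.

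Brighter probe sets were more often lower. Among the 410 probe sets at least as bright as the median gene of the list (a signal of about 2951), the median log2 difference was -0.10, and 16.1% were lower at an unadjusted p under 0.05. The 16 genes of the list in that range had a median of -0.26, and 8 of them (50%) were lower at that p. Of the 410, 66.8% had a negative difference and 48 were apart and lower, against 87.5% and 7 of the 16 genes. On 7 arrays 29.3% of the 410 were lower at that p, with a median of -0.15. Of the 16 genes 9 were (56.2%), with a median of -0.26. There 69.3% of the 410 were negative and 108 were apart and lower, against 93.8% and 8 of the 16 genes. The scaling of the arrays also mattered. After quantile normalization 7 of the 31 genes were lower at an unadjusted p under 0.05, where 5.43% of all probe sets were. Sdha, Idh3g, Got2 and Slc25a11 stayed negative there but no longer reached that p (unadjusted p from 0.0513 to 0.142 in limma). After median centring of each array 18 genes were lower at that p, where 8.71% of all probe sets were. The part of signal strength in the result was not tested.

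**Figure D1:**
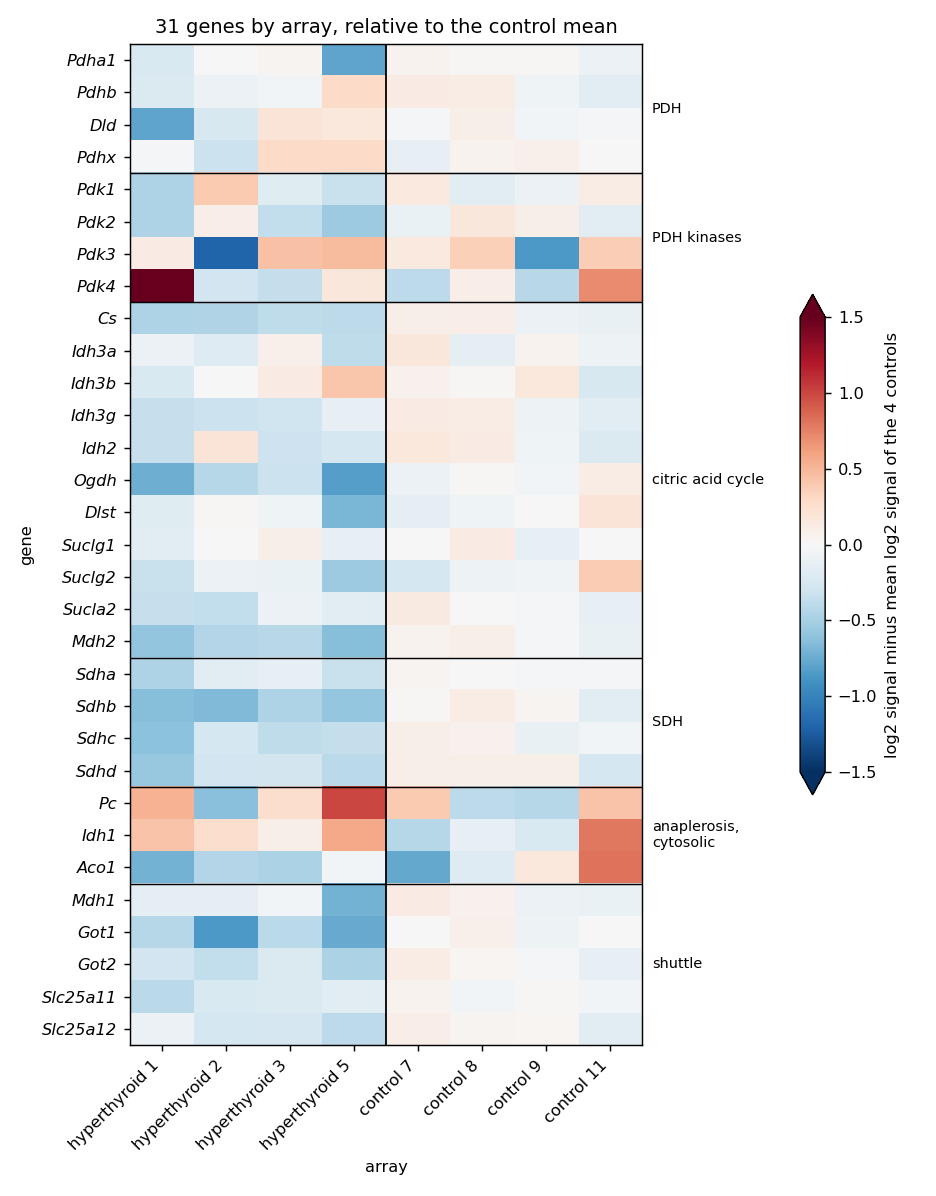
Log2 signal of each of the 31 genes (rows, grouped by role) on each array (columns) minus the mean log2 signal of the 4 controls, with blue for lower and red for higher and colours saturating at 1.5. Cs, Ogdh, Mdh2, Got1 and the 4 succinate dehydrogenase rows are blue on all 4 hyperthyroid arrays, and Pdk4 on hyperthyroid 1 is the reddest cell.

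Promoter sequences are given first for the genes whose values follow. Upstream sequence was taken from RefSeq on the GRCr8 build and matched by gene ID for 29 of the 31 genes, with Idh3a and Pc unmatched. The 250 bases before the start of Sdhb, Mdh2, Got1 and Cs are shown 5′ to 3′, because the first 3 had the smallest unadjusted p and Cs opens the cycle. Capitals mark matches, on either strand, to the motifs named after them.
Sdhb, chr5:158547684-158547933, plus strand: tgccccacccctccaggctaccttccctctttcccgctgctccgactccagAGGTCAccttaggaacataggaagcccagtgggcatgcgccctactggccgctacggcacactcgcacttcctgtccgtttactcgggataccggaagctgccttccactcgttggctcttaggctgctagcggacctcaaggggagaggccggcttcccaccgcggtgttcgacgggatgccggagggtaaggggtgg
Mdh2, chr12:26543842-26544091, minus strand: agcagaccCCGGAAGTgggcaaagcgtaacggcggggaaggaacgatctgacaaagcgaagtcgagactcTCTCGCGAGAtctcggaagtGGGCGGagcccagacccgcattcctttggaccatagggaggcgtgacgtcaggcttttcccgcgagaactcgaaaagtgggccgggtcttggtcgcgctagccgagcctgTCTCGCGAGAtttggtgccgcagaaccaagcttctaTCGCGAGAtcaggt
Got1, chr1:252329872-252330121, minus strand: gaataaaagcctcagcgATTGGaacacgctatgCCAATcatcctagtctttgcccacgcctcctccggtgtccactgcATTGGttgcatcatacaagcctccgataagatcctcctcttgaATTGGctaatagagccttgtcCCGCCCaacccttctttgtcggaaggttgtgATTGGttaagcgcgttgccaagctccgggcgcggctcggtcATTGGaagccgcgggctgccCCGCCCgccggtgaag
Cs, chr7:1348139-1348388, plus strand: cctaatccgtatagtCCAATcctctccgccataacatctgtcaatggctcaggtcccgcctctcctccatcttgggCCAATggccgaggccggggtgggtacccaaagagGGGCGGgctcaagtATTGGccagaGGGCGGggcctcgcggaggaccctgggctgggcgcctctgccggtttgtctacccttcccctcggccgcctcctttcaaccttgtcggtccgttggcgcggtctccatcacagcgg

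The motifs were searched on both strands, from 250 before to 50 after each gene start, in the 29 genes and in 33469 promoters of the rat. The half-site AGGTCA, which nuclear receptors including thyroid hormone receptors recognise, was found in 5 of 29 windows (17.2%) and in 16.2% of all promoters. It is the capital run of Sdhb. A direct repeat of it with a 4-base spacer, the form known for thyroid hormone receptors, was found in 0 of 29 and in 0.00598% of all. The estrogen-related receptor form TNAAGGTCA, which contains AGGTCA, was found in 1 window, that of Sdhd (3.45%, against 1.20%). The NRF1 palindrome was found in 0 of 29 and in 0.852% of all, and the ETS form CCGGAAGT in 2, Mdh2 and Dlst (6.90%, against 3.81%).

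After the sequences had been read, 3 more motifs were added. TCTCGCGA, whose palindrome appears in Mdh2 at more than 1 place, was found in 3 windows, those of Mdh2, Idh3g and Slc25a11 (10.3%, against 0.855% of all promoters). The CCAAT box (CCAAT, read ATTGG on the other strand) was found in 15 windows (51.7%, against 37.5%), 6 times in the Got1 stretch and 3 times in that of Cs. The GC box GGGCGG was found in 18 windows (62.1%, against 33.1%). These matches describe the letters of the windows, and no binding was measured.

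All 4 subunits of succinate dehydrogenase were lower in the hyperthyroid group without overlap. Of all probe sets 3.23% were apart and lower, and of the 410 bright ones described above 48 were. Sdhb encodes the iron-sulfur subunit, which relays electrons from the flavoprotein to the membrane anchors. Its signals were 4832, 4749, 5462 and 5018 on hyperthyroid arrays, against 7600, 8111, 7720 and 6703 on controls. Every hyperthyroid value lay below every control value, and the means were 5015 ± 318 and 7534 ± 595 (SD, n = 4 each). The log2 difference was -0.59 ± 0.12 (SE), with limma's adjusted p = 0.214 over all probe sets and an unadjusted p of 0.000363, the smallest of the 31 genes. On 7 arrays it was again -0.59 ± 0.11 (adjusted p = 0.0668).

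Sdhc, one of the 2 membrane anchors, had signals of 2712, 3467, 3197 and 3254 on hyperthyroid arrays, against 4414, 4331, 3854 and 4037 on controls. Sdhd, the other anchor, had 4086, 4977, 5026 and 4587 on hyperthyroid arrays, against 6432, 6463, 6462 and 5066 on controls. Neither gene's groups overlapped, but for Sdhd control 11 lay only just above hyperthyroid 3. The log2 differences were -0.40 ± 0.12 for Sdhc and -0.38 ± 0.13 for Sdhd (limma's adjusted p = 0.295 and 0.332). A second, dimmer probe set of Sdhd stood at -0.49 ± 0.16, also without overlap. Sdha, the flavoprotein that binds succinate, had 2455, 3009, 3103 and 2689 on hyperthyroid arrays, against 3480, 3398, 3338 and 3330 on controls. Its controls were tightly grouped (3386 ± 69.2, against 2814 ± 298 in the hyperthyroid group; SD, n = 4 each), and its log2 difference of -0.27 ± 0.12 was the smallest of the 4 subunits. On 7 arrays Sdhc stood at -0.42 ± 0.12, Sdhd at -0.38 ± 0.13 and Sdha at -0.25 ± 0.11.

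**Figure D2:**
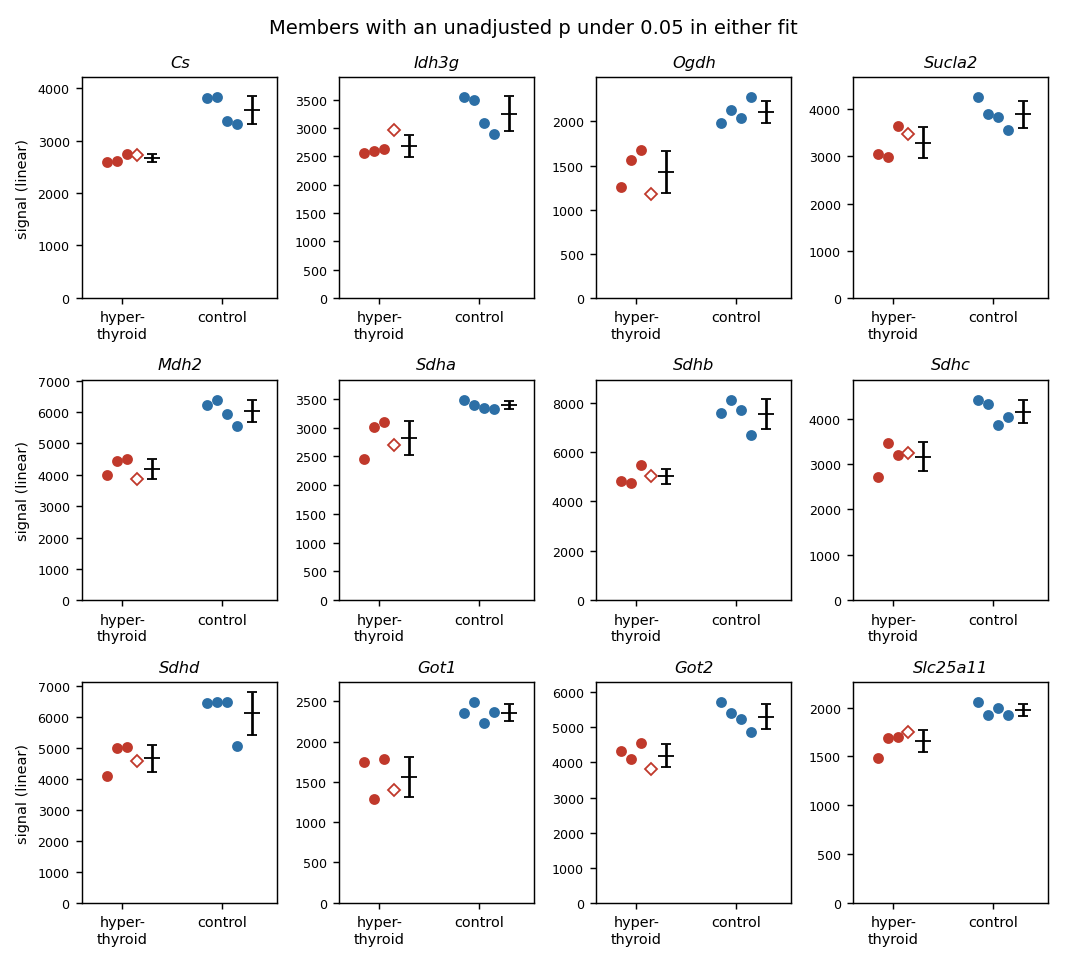
Linear signal of the 12 genes with an unadjusted p under 0.05 on 8 or 7 arrays, with 1 point per array (hyperthyroid left, control right), the array labelled hyperthyroid 5 as an open diamond, and bars for the mean and SD (n = 4). In 10 panels every hyperthyroid point lies below every control point, and the exceptions are Idh3g and Sucla2.

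Within the cycle proper, 4 of the 11 measured enzyme genes outside succinate dehydrogenase were lower at an unadjusted p under 0.05 (36.4%). Over all probe sets that share was 5.30%. Mdh2, the mitochondrial malate dehydrogenase that closes the cycle, had signals of 3984, 4443, 4502 and 3867 on hyperthyroid arrays, against 6224, 6387, 5949 and 5566 on controls. The gap between the groups was wider than the range within either, and the log2 difference was -0.52 ± 0.12 on 8 arrays and -0.49 ± 0.11 on 7 (limma's adjusted p = 0.216 and 0.0919). Ogdh encodes the first component of oxoglutarate dehydrogenase, a rate-controlling step. It had 1262, 1562, 1681 and 1182 on hyperthyroid arrays, against 1983, 2127, 2042 and 2272 on controls, a log2 difference of -0.58 ± 0.14 (adjusted p = 0.241; on 7 arrays -0.50 ± 0.13, adjusted p = 0.118). Its partner components overlapped between groups, and their difference from Ogdh was not tested. Dlst, the succinyltransferase, stood at -0.23 ± 0.17 and at -0.08 ± 0.13 on 7 arrays, its lowest signal being 635 on the array labelled hyperthyroid 5. Dld, the dehydrogenase shared with the pyruvate complex, stood at -0.17 ± 0.20 (-0.28 ± 0.19 on 7 arrays), with 1014 on hyperthyroid 1 and between 1485 and 1997 on the other 7 arrays.

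Cs, citrate synthase, condenses acetyl-CoA with oxaloacetate and is a common marker of mitochondrial content. Its brightest probe set gave 2590, 2607, 2750 and 2730 on hyperthyroid arrays, against 3817, 3826, 3373 and 3324 on controls. The hyperthyroid values were closer together than the control values (SD 82.5 and 274, n = 4 each), and the log2 difference was -0.42 ± 0.11 on 8 arrays and -0.43 ± 0.11 on 7 (limma's adjusted p = 0.265 and 0.110). The gene's 3 dimmer probe sets disagreed with each other. One stood at -0.68 ± 0.24 (-0.84 on 7 arrays) and another at -0.11 ± 0.19 (-0.25 on 7 arrays). The dimmest was higher on hyperthyroid arrays (96.2, 100, 70.5 and 61.9, against 3.68, 50.6, 31.8 and 28), at 2.00 ± 0.72 (2.12 on 7 arrays). Averaging the 4 probe sets turned the direction of Cs, to 0.20 ± 0.20.

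The NAD-dependent isocitrate dehydrogenase, a further control point of the cycle, has 3 kinds of subunit. The regulatory Idh3g had 2559, 2596, 2628 and 2974 on hyperthyroid arrays, against 3543, 3496, 3088 and 2898 on controls, and the array labelled hyperthyroid 5 alone reached into the control range. Its log2 difference was -0.27 ± 0.12 (unadjusted p = 0.0437, adjusted p = 0.418 in limma) and -0.32 ± 0.11 on 7 arrays, where the groups did not overlap. The catalytic Idh3a stood at -0.15 ± 0.14 on 8 arrays and -0.07 ± 0.13 on 7. Idh3b stood at 0.08 ± 0.15 on 8 arrays and turned to -0.03 ± 0.13 on 7, and both genes' groups overlapped. Idh2, the mitochondrial NADP-dependent enzyme, stood at -0.18 ± 0.15 (-0.15 ± 0.15 on 7 arrays). For succinyl-CoA ligase, which makes ATP or GTP, the shared alpha subunit Suclg1 stood at -0.05 ± 0.12, with a 95% interval from -0.31 to 0.20 (-0.03 ± 0.11 on 7 arrays). The ATP-forming beta subunit Sucla2 had 3044, 2995, 3652 and 3475 on hyperthyroid arrays, against 4251, 3908, 3833 and 3568 on controls, with 1 hyperthyroid array inside the control range. Sucla2 stood at -0.24 ± 0.12 on 8 arrays and at -0.27 ± 0.12 on 7 (unadjusted p = 0.0686 and 0.0385 in limma), and the GTP-forming Suclg2 at -0.27 ± 0.17 and -0.18 ± 0.16.

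The malate-aspartate shuttle had all 5 measured genes lower, 3 of them with no overlap between groups. Over all probe sets, 47.5% were lower and 3.23% were lower with no overlap. Got1, the cytosolic aspartate aminotransferase, had signals of 1750, 1293, 1787 and 1394 on hyperthyroid arrays, against 2352, 2487, 2229 and 2367 on controls. It showed the most negative log2 difference of the 31 genes, -0.61 ± 0.14, and -0.57 ± 0.13 on 7 arrays (limma's adjusted p = 0.218 and 0.100). Got2, its mitochondrial partner, had 4333, 4088, 4566 and 3801 on hyperthyroid arrays, against 5713, 5415, 5228 and 4875 on controls, a log2 difference of -0.34 ± 0.12 (-0.29 ± 0.11 on 7 arrays). A much dimmer Got2 probe set stood at -0.01 ± 0.26. The oxoglutarate-malate carrier Slc25a11 had 1488, 1689, 1696 and 1748 on hyperthyroid arrays, against 2054, 1926, 1995 and 1924 on controls, a log2 difference of -0.26 ± 0.11 (-0.28 ± 0.11 on 7 arrays). The aspartate-glutamate carrier Slc25a12 stood at -0.25 ± 0.12 (-0.20 ± 0.11 on 7 arrays) and overlapped through hyperthyroid 1, whose signal of 2374 exceeded the lowest control, 2251.

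Mdh1, the cytosolic malate dehydrogenase, depended on a single array. Its signals were 14677, 14829, 15712 and 9955 on hyperthyroid arrays, against 17653, 16968, 15315 and 15120 on controls. The log2 difference was -0.26 ± 0.16 on 8 arrays and -0.11 ± 0.11 on 7. A second Mdh1 probe set, with 2433, 2715, 2771 and 1245 on hyperthyroid arrays and 3422, 3392, 3086 and 3113 on controls, did not overlap and stood at -0.57 ± 0.23 (-0.30 ± 0.11 on 7 arrays).

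Partner genes were then set against each other within each array, in 6 pairs, by exact two-sided permutation of 4 against 4 arrays. Got1 relative to Got2 was lower in the hyperthyroid group, with within-array log2 ratios of -1.31, -1.66, -1.35 and -1.45 against -1.28, -1.12, -1.23 and -1.04 in controls. The groups did not overlap, and the difference of -0.27 had the smallest p that this exact test allows (0.0286, and 0.171 after adjustment over the 6 pairs). Mdh1 relative to Mdh2 differed by 0.27 (exact permutation p = 0.114, adjusted 0.343). The other 4 pairs had exact p-values between 0.200 and 1. They were Pdk4 against Pdk2 (0.60), Suclg2 against Sucla2 (-0.03), Idh1 against Idh2 (0.52) and Idh3a against Idh3b (-0.23). No pair passed after adjustment on 8 arrays. A pair that alone reaches the smallest p cannot fall below an adjusted 0.171 there, so Got1 against Got2 could not pass by itself. On 7 arrays no pair could pass, since the smallest p the exact test allows there is 0.0571.

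**Figure D3:**
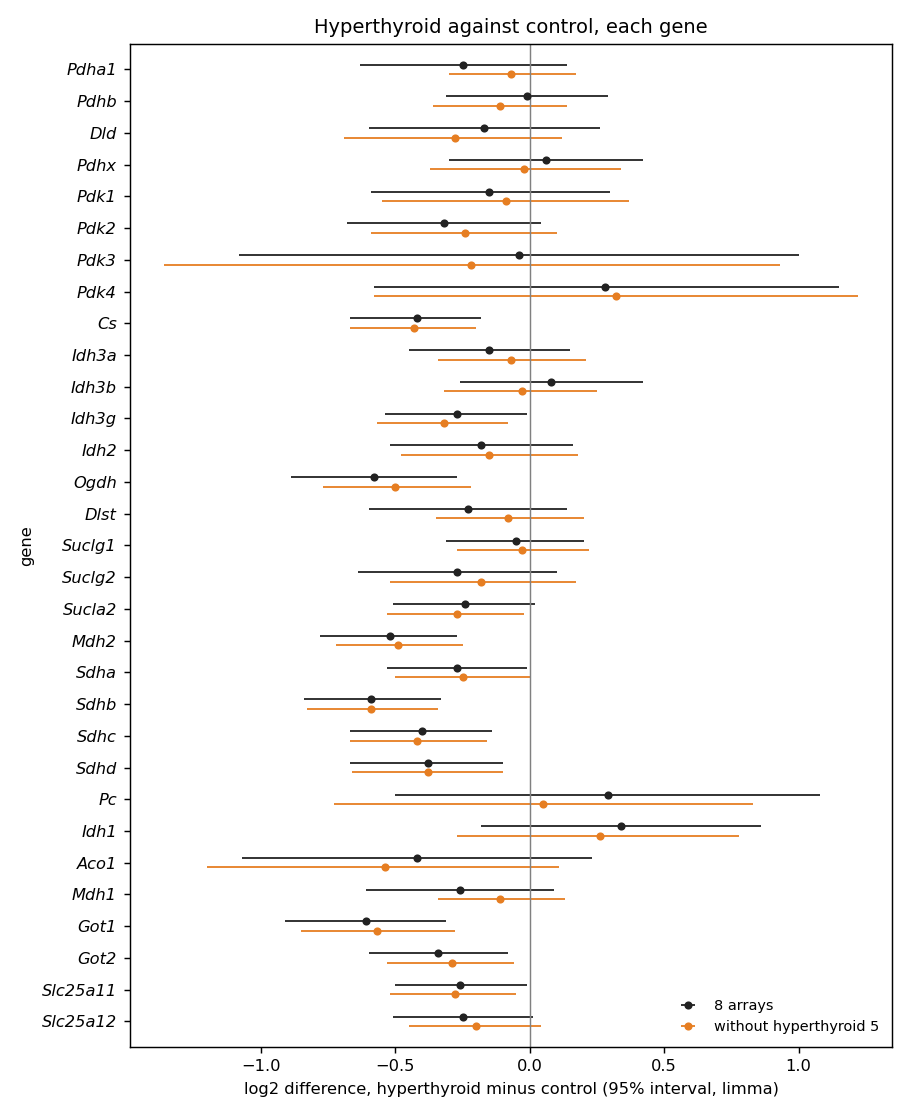
Log2 difference (hyperthyroid minus control) of each of the 31 genes with its 95% interval from limma, on 8 arrays (black) and on 7 arrays without the array labelled hyperthyroid 5 (orange), top to bottom by role. Among genes whose intervals stop short of 0, Sdhb, Ogdh, Mdh2 and Got1 lie farthest to the left in both fits. Pdk3, Pdk4, Pc and Aco1 have wide intervals that span 0, and Aco1 (-0.54 on 7 arrays) lies left of Ogdh and Mdh2 there.

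The pyruvate dehydrogenase complex itself showed no gene at an unadjusted p under 0.05 on its brightest probe set. Pdha1, the alpha subunit of the decarboxylase that carries the regulatory phosphorylation sites, had 5756, 6686, 6948 and 3880 on hyperthyroid arrays, against 6997, 6846, 6804 and 6331 on controls. The low value was that of the array labelled hyperthyroid 5, and the log2 difference of -0.25 ± 0.18 became -0.07 ± 0.11 without it. A second Pdha1 probe set gave another picture, with 641, 807, 1082 and 1015 on hyperthyroid arrays, against 1333, 1499, 1229 and 1483 on controls. Those groups did not overlap (-0.67 ± 0.17, unadjusted p = 0.0024 in limma; -0.74 ± 0.17 on 7 arrays). The beta subunit Pdhb stood at -0.01 ± 0.14, with a 95% interval from -0.31 to 0.29, and at -0.11 ± 0.11 on 7 arrays. The E3-binding protein Pdhx stood at 0.06 ± 0.16 on 8 arrays and turned to -0.02 ± 0.16 on 7.

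The 4 kinases that inactivate the complex all overlapped between groups. Pdk4, the isoform induced by fasting and by fatty acids in muscle, had 9168, 2471, 2356 and 3397 on hyperthyroid arrays, against 2298, 3224, 2263 and 4910 on controls. Hyperthyroid 1 stood far above the other 7 arrays, and the other 3 hyperthyroid values lay within the control range. The log2 difference was 0.28 ± 0.40 on 8 arrays, with a 95% interval from -0.58 to 1.15. It was 0.32 ± 0.41 on 7 arrays and turned to -0.16 ± 0.26 without hyperthyroid 1. Pdk2, the kinase with the broadest tissue range, had 620, 915, 663 and 588 on hyperthyroid arrays, against 800, 965, 906 and 766 on controls. In Pdk2 3 of 4 hyperthyroid values lay below all controls, and hyperthyroid 2 lay within their range (-0.32 ± 0.16, unadjusted p = 0.0764 in limma; -0.24 ± 0.16 on 7 arrays). Pdk1 had 200, 360, 242 and 219 on hyperthyroid arrays, against 304, 246, 259 and 297 on controls, at -0.15 ± 0.20 (-0.09 ± 0.21 on 7 arrays). Pdk3 was dim, with 54.5, 21.8, 67.8 and 69.6 on hyperthyroid arrays, against 55.4, 64.3, 27.6 and 64.8 on controls, at -0.04 ± 0.47 with a 95% interval from -1.08 to 1.00 (-0.22 ± 0.53 on 7 arrays). A dimmer Pdk4 probe set stood at -0.42 ± 0.37 and a dimmer Pdk2 probe set at -1.20 ± 0.59.

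**Figure D4:**
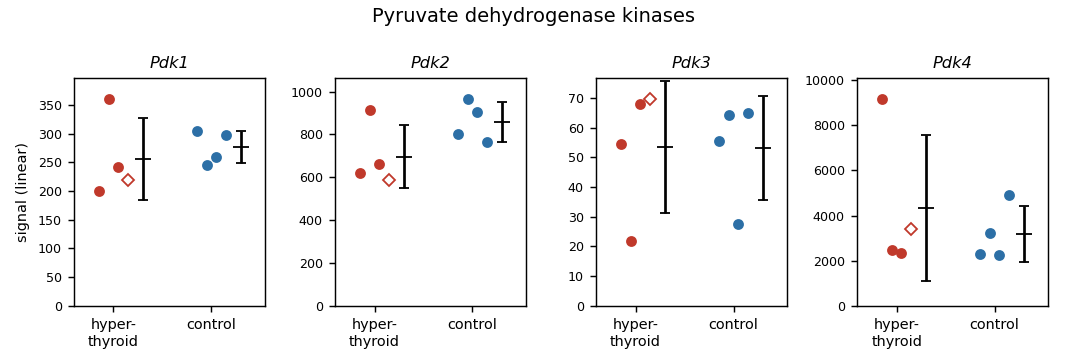
Linear signal of the 4 pyruvate dehydrogenase kinases by array (hyperthyroid left, control right), with the array labelled hyperthyroid 5 as an open diamond and bars for the mean and SD (n = 4). The groups overlap in every panel, and the Pdk4 mean of the hyperthyroid group is raised by 1 array at 9168.

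Of the 3 anaplerotic and cytosolic enzymes, Idh1 and Pc had positive and Aco1 negative differences, and none reached an unadjusted p under 0.05 on 8 or 7 arrays. Their difference from the cycle genes was not tested. Idh1, the cytosolic NADP-dependent isocitrate dehydrogenase, which supplies NADPH, had 1120, 1004, 889 and 1244 on hyperthyroid arrays, against 621, 764, 711 and 1444 on controls. All hyperthyroid values lay above 3 of the 4 controls, and control 11 was the highest array. The log2 difference was 0.34 ± 0.24 on 8 arrays, 0.26 ± 0.24 on 7 and 0.60 ± 0.16 without control 11 (unadjusted p = 0.00381 and adjusted p = 0.464 in limma). Aco1, the cytosolic aconitase that doubles as an iron sensor, had 174, 209, 205 and 277 on hyperthyroid arrays, against 168, 249, 317 and 500 on controls, at -0.42 ± 0.30, at -0.54 ± 0.30 on 7 arrays and at -0.15 ± 0.26 without control 11. Pc, pyruvate carboxylase, which refills oxaloacetate and is abundant in fat cells, had 122, 55.5, 103 and 171 on hyperthyroid arrays, against 113, 65.3, 63.5 and 115 on controls, at 0.29 ± 0.36 and at 0.05 ± 0.36 on 7 arrays. Pc was highest on the array labelled hyperthyroid 5 and lowest on hyperthyroid 2, as was the summed adipocyte signal (12059 and 971, against 2219 to 3674 on controls). Among controls the order was not shared. The adipocyte sum was highest on control 8 (3674, with Pc at 65.3) and lowest on control 11 (2219, with Pc at 115). The part of fat cells in the Pc values was not tested.

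Of other genes of the pathway, 22 of a list of 26 were tested, and 15 had negative and 7 positive differences (68.2% negative, against 47.5% of all probe sets). At an unadjusted p under 0.05, 3 were lower (13.6%, against 5.30% of all probe sets) and 2 were higher (against 6.25%), and 0 passed the adjusted threshold. Their median log2 difference was -0.07 on 8 arrays and -0.17 on 7, where 5 were lower and 3 higher at that p (against 7.66% and 7.59%). Mpc2, a subunit of the mitochondrial pyruvate carrier, had 3161, 3395, 3950 and 3614 on hyperthyroid arrays, against 5792, 5019, 5256 and 5195 on controls. The groups were well apart, with a log2 difference of -0.59 ± 0.12 on 8 arrays and -0.61 on 7 (unadjusted p = 0.000369 and 0.000197 in limma). Its partner Mpc1 stood at -0.10 ± 0.13 (-0.20 ± 0.11 on 7 arrays). Pdp1, the phosphatase that reactivates pyruvate dehydrogenase, had 563, 581, 935 and 809 on hyperthyroid arrays, against 980, 1010, 1008 and 1052 on controls, a log2 difference of -0.52 ± 0.17 (-0.59 ± 0.17 on 7 arrays). Glud1, glutamate dehydrogenase, had 651, 818, 831 and 685 on hyperthyroid arrays, against 902, 1147, 1035 and 1162 on controls, at -0.51 ± 0.14 (-0.47 ± 0.14 on 7 arrays). All 3 were without overlap.

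The 2 genes that stood higher also showed no overlap. Gpd2, the mitochondrial glycerol-3-phosphate dehydrogenase of the other NADH shuttle and a classical thyroid hormone target in liver, had 692, 769, 681 and 790 on hyperthyroid arrays, against 623, 543, 612 and 476 on controls. Its log2 difference was 0.38 ± 0.14 on 8 arrays and 0.35 on 7 (unadjusted p = 0.0178 and 0.0311, adjusted p = 0.344 on 8, in limma). Gpd1, the cytosolic enzyme of the same shuttle, stood at -0.04 ± 0.26 (-0.27 ± 0.20 on 7 arrays). Gpt2, the mitochondrial alanine aminotransferase, had 393, 422, 499 and 781 on hyperthyroid arrays, against 381, 299, 349 and 178 on controls, at 0.80 ± 0.27 and at 0.59 on 7 arrays. On 7 arrays Slc25a10 (-1.26) and Sdhaf2 (-0.36) were also lower and Me2 (0.72) higher at an unadjusted p under 0.05. Whether the shuttles differed in their response was not tested.

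**Figure D5:**
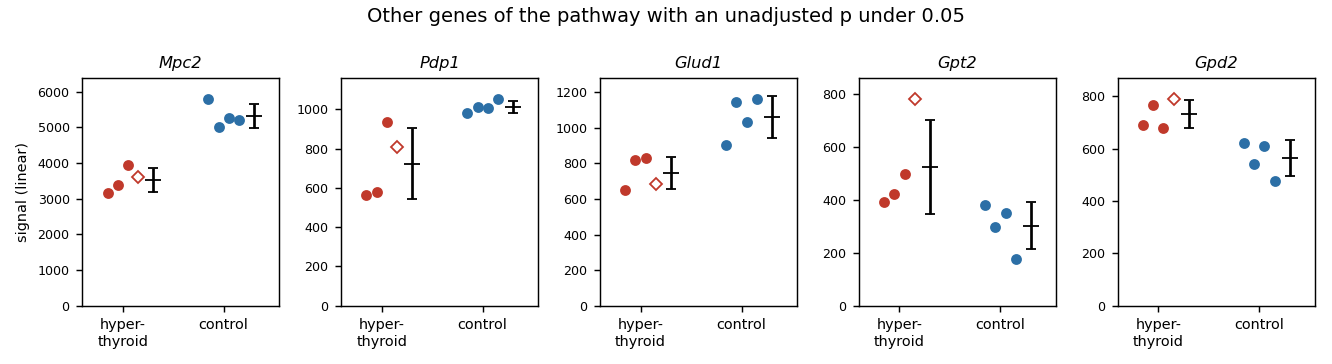
Linear signal of the 5 other pathway genes with an unadjusted p under 0.05 on 8 arrays (hyperthyroid left, control right), with the array labelled hyperthyroid 5 as an open diamond and bars for the mean and SD (n = 4). Mpc2, Pdp1 and Glud1 lie lower and Gpt2 and Gpd2 higher on every hyperthyroid array.

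Genes of mitochondrial membranes, protein import and chaperones, 16 in a fixed list, were also read. Of 14 tested, 6 were lower (42.9%, against 47.5% of all probe sets) and 8 higher. The median log2 difference was 0.04 (0.06 on 7 arrays, with 7 lower and 7 higher). At an unadjusted p under 0.05, 3 were lower (21.4%, against 5.30% of all probe sets) and 2 higher (against 6.25%). The lower ones were Vdac2 (-0.39 ± 0.13), an outer membrane channel, and the matrix chaperones Hspd1 (-0.37 ± 0.13) and Hspa9 (-0.41 ± 0.15). Each was without overlap, where 3.23% of all probe sets were apart and lower. The higher ones were the import receptor Tomm20 (0.49 ± 0.15) and the fusion protein Mfn2 (0.41 ± 0.18), both with overlap. On 7 arrays these stood at -0.41 for Vdac2, -0.26 for Hspd1, -0.40 for Hspa9, 0.43 for Tomm20 and 0.56 for Mfn2. None passed the adjusted threshold, and the difference between this list and the 31 genes was not tested.

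By array, the median of the 31 genes relative to the control mean was -0.34, -0.26, -0.19 and -0.33 on hyperthyroid arrays, against 0.06, 0.05, -0.04 and -0.04 on controls. Hyperthyroid 1 held the lowest value of 11 genes, the array labelled hyperthyroid 5 of 10, hyperthyroid 2 of 6 and hyperthyroid 3 of 0, which leaves 4 genes lowest on a control. The succinate dehydrogenase median was lowest on hyperthyroid 1 (-0.59), and the shuttle median on the array labelled hyperthyroid 5 (-0.48). The Gapdh ratio was above every control on hyperthyroid 1, 2 and 3, and highest on hyperthyroid 2. On the array labelled hyperthyroid 5 it was below every control. The ratio thus partly follows the group, and a fit with both cannot fully tell them apart. With the Gapdh ratio as a covariate, 13 of the 31 genes (41.9%) were lower at an unadjusted p under 0.05, where 7.22% of all probe sets were lower and 5.98% higher, and the median of the 31 was -0.29.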

How the data were processed

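Per the labels, total RNA was hybridised to Affymetrix arrays, and per the submitters' processing notes the values come from GCOS, with no version given. The deposited table holds linear intensities. With 2% of values trimmed from each end, array means ran only from 150.05 to 150.06, so the authors' intensities had been scaled to each other, and medians ran from 47.8 to 58.5. Detection calls and filters are not given in the sources used here. No file gives counts, and the number of arrays limits the precision.

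From the deposited intensities, 57 control probe sets of 31099 were removed, values under 1 were set to 1 and log2 was taken. Tests were run on the brightest 60% (18625 probe sets, with a mean log2 signal equal to an intensity above about 28.2). Hyperthyroid was compared with control by limma 3.58.1 in R 4.3.3 (two-sided; lmFit, then eBayes with a trend). The Benjamini-Hochberg adjustment ran over all probe sets tested, at a threshold of 0.05. Gene names come from the platform annotation: 20826 probe sets had 1 symbol, 436 several and 9780 none, and only probe sets with 1 symbol were named. Symbols of 20758 were found in a reference gene table, and 0 needed an update. Exact permutation tests used SciPy 1.17.1.

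The rats were separate animals. Genes, lists and tests were chosen with earlier results of these data known. All 31 genes are named. Full per-array values are given for those with an unadjusted p under 0.05 on 8 or 7 arrays, the 4 kinases and Cs, and for others whose value rests on 1 array, chosen after their values were seen. Other pathway genes are named where that p was reached, with their direct partners. The alternatives were other normalizations, filters, log offsets, variance models and probe-set summaries, a Gapdh covariate and leaving out arrays. The CCAAT, CGCG and GC box motifs were chosen after the promoters had been read. Both fits were tested on simulated arrays in which 200 of 18625 probe sets had been changed. Of those changed 2-fold, 21% were recovered on 8 arrays and 22% on 7. Of those changed 4-fold, 63% and 61% were recovered. Unchanged probe sets called numbered 2 and 0 at 2-fold, and 5 and 6 at 4-fold. The changed probe sets were drawn at random from all tested ones. These shares therefore do not give the recovery for the 31 genes or for smaller changes.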

Additional observations from a re-analysis of the deposited data

Results flagged for a closer look

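Outlying arrays were looked for in each group of 4 for each of the 31 genes, 62 combinations in all. Distances were taken on log2 signal, while the signals printed here are linear. In 4 combinations 1 array was too far from its nearest neighbour, relative to the group's range. The limit was the 95% critical value of Dixon's test for 4 values, where chance flags about 1 in 20. Mdh1 was low on the array labelled hyperthyroid 5, with a signal of 9955 against 14677 to 15712 on the other hyperthyroid arrays. Idh2 was high on hyperthyroid 2, with 9550 against 6549 to 6966. Sdhd was low on control 11, with 5066 against 6432 to 6463 on the other controls. Dld was high on control 8, with 1861 against 1709 to 1727, a gap that is small in absolute terms because those controls were close together.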

How the results depend on the processing

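No paired analysis was possible because the groups share no replicate number. On all 8 arrays, none of the 31 genes passed the adjusted threshold under any alternative. Without the array labelled hyperthyroid 5, 6 genes passed with median centring over all probe sets (Sdhb, Mdh2, Got1, Cs, Sdhc and Ogdh, when 302 probe sets were called lower and 13 higher), and 1, Sdhb, with centring on the tested probe sets, an alternative added after the data were seen (44 called lower and 9 higher). Median centring moved the median of all tested probe sets from 0.03 to -0.09 on 8 arrays and from 0.04 to -0.14 on 7. Centring shifts every probe set of an array by the same amount. It therefore cannot change the gap between the medians of the 31 genes and of all probe sets. That gap was -0.28 on 8 arrays and -0.26 on 7 in the deposited scaling. After quantile normalization the gap was -0.18 on 8 arrays and -0.12 on 7.

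The count of genes lower at an unadjusted p under 0.05, 11 in the deposited scaling, was 7 with quantile normalization and 18 with median centring on 8 arrays, and 7 and 19 without the array labelled hyperthyroid 5, where 7.87% and 14.9% of all probe sets were lower at that p, against 7.66% in the deposited scaling. Among all probe sets at that p, 45.9% were lower in the deposited scaling, 74.1% with median centring and 57.9% with centring on the tested probe sets. Leaving out 1 array at a time gave 8 to 12 lower genes and 0 to 1 higher, the 1 being Idh1 without control 11. In those fits 3.62% to 7.66% of all probe sets were lower and 5.07% to 7.59% higher at that p. The median log2 difference was -0.37 with median centring, and -0.12 and -0.40 without the array labelled hyperthyroid 5 after quantile normalization and median centring, and it ran from -0.30 to -0.22 with 1 array left out. Cs turned to 0.20 when its probe sets were averaged, because 1 of its dimmer probe sets stood at 2.00. Apart from Cs, 35 member values in 10 genes changed sign under some alternative, all with an unadjusted p of at least 0.05 in both fits. Sdhb, Mdh2, Ogdh and Got1 were negative under all alternatives, as were most genes of the list, including Mdh1, Pdk2 and the dim Aco1. Pdk3, Pc and Aco1 were dim, and their intervals are wide.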
